A study of Oryza sativa Japonica Group with 4 samples.

Results

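Expansins and xyloglucan-modifying enzymes are the secreted proteins that let plant cell walls yield during growth, and 30 of their genes were measured in rice roots. A gene was taken when its symbol or a synonym was EXPA, EXPB, EXLA, EXLB, XTH or XET with a number and a probe set was annotated to that gene alone. These 30 genes, of 17905 named by the annotation, were 14 alpha-expansins (EXPA), 11 beta-expansins (EXPB), 4 expansin-like genes of class A (EXLA) and a single xyloglucan gene, XTH8. Another 20 genes of these names, 15 of them alpha-expansins, had no such probe set and are not analysed here. XTH8 was the 1 gene with an XTH or XET name in the RefSeq gene table. Xyloglucan enzyme genes listed without such a name were not sought, so XTH8 does not stand for the class. Where a gene had several probe sets, its brightest one by mean log2 intensity was used.

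Roots came from seedlings of the japonica rice cultivar TNG67, germinated for 3 days in the dark and grown for 2 weeks in hydroponic solution that lacked nitrogen. All seedlings, controls included, were thus nitrogen-starved, and as 17-day-old seedlings they spent 30 min in fresh solution without nitrogen (minus N, 2 arrays) or in solution with 2.5 mM glutamine (plus glutamine, 2 arrays). The biological repeats were numbered 1 and 2 in each group, and each RNA sample from roots was hybridised to 1 GeneChip Rice Genome Array. The labels do not say whether a repeat pooled several plants, or whether equal numbers mark a shared batch of plants.

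Expansins loosen the wall at acid pH without cutting its polymers, so that turgor can extend the cell. Alpha-expansins act on most plant walls, whereas the beta-expansins are a class that is enlarged in grasses and includes the pollen allergens of that family. Expansin-like proteins share the fold, but no wall-loosening activity is established for them. Xyloglucan endotransglucosylase/hydrolases (XTH) cut and rejoin xyloglucan chains, and xyloglucan is a minor component of grass walls. In roots these proteins are known from the elongation zone and from growing root hairs.

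The arrays were alike in overall signal, with a median log2 intensity of all genes between 7.16 and 7.46. They correlated most closely by replicate number (r = 0.995 between the arrays numbered 1 and r = 0.990 between those numbered 2, against 0.975 between the minus N arrays and 0.983 between the plus glutamine arrays, across probe sets, which are not replicates). For the Gapdh control, the 3′ signal divided by the 5′ signal was 6.94 and 6.20 in the arrays numbered 1 of minus N and plus glutamine, and 4.32 and 4.43 in those numbered 2. Of 10 root markers, the silicon transporter gene Lsi1 was at log2 12.83 to 13.14 on every array. The root patterning genes SHR1 and SCR1 were dim, at 5.95 to 6.26 and 3.55 to 3.90. Among 3 green tissue markers, CAB2R lay between 13.07 and 13.36 and rbcS between 8.23 and 10.01, while RBCS1 had a mean of 2.07. Of 8 seed storage markers, 6 lay below the median gene on average, while GLB1 stood at 9.78 to 10.20 and GLUA2 at 7.88 to 8.18. The part of green or seed tissue in the results was not tested.

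In bulk root RNA, fewer cells of a type and less RNA per cell cannot be told apart. Intensities are given as log2 of the deposited value, so that a step of 1 is a 2-fold step in signal. Probe sets bind their targets with different strength, so an order of intensities is an order of signals and not of transcript numbers.

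Beta-expansins gave the brightest signals of the 3 expansin classes. Their median over the 4 arrays was 8.98, and 8 of the 11 lay above the median of all genes, 7.33. Alpha-expansins had a median of 6.70 with 7 of 14 above, and expansin-like genes one of 6.15 with 1 of 4 above. XTH8 stood at 10.20, brighter than 90.5% of all genes. Within each class the genes spread widely, from 2.50 to 9.88 for alpha-expansins, from 2.65 to 11.08 for beta-expansins and from 3.93 to 9.69 for expansin-like genes. The plot of each gene on the 4 arrays shows this spread.

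**Figure D1:**
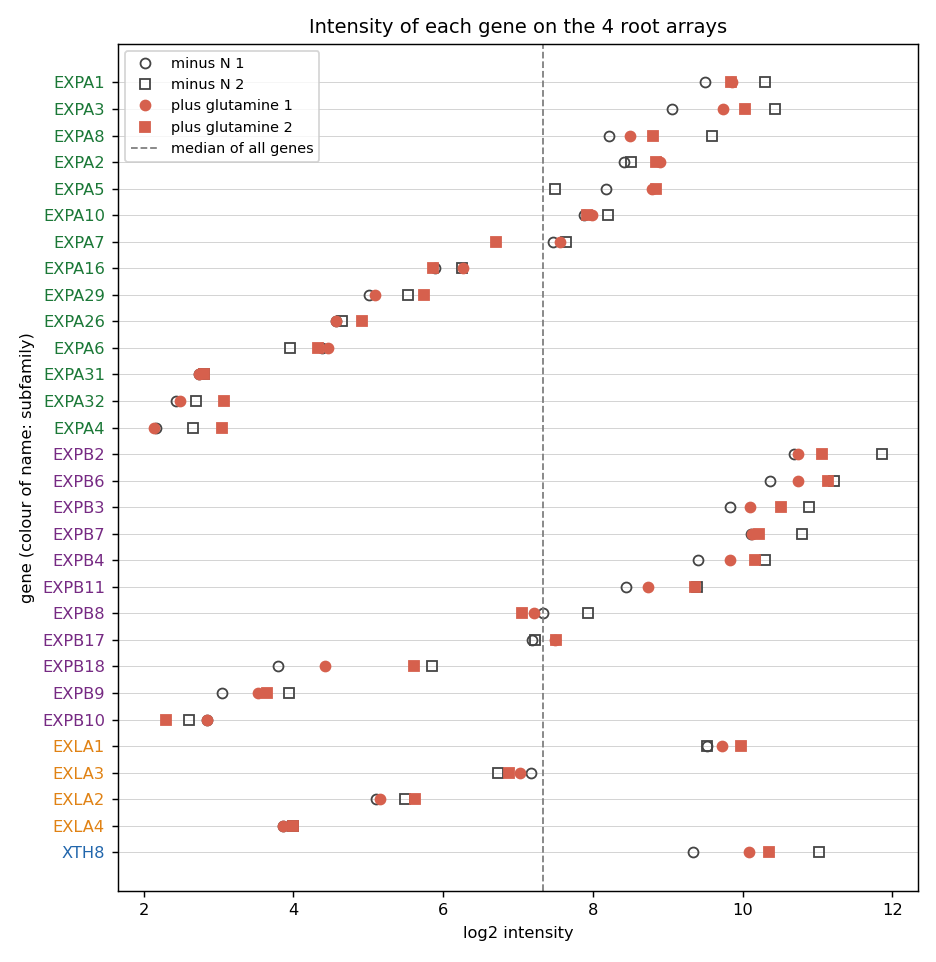
Log2 intensity (x axis) of each of the 30 genes (y axis, grouped by subfamily and ordered by mean intensity) on the 2 minus N arrays (open symbols) and the 2 plus glutamine arrays (filled symbols); circles are number 1 and squares number 2, and the dashed line is the median of all genes, 7.33. The brightest genes are beta-expansins, led by EXPB2 at a mean of 11.08, and for many bright genes both filled symbols lie between the open circle and the open square.

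EXPB2 (LOC4349348), a beta-expansin whose suppression alters the root system of rice, was the brightest of all 30 genes. Its log2 intensity was 10.69 and 11.86 in the minus N repeats 1 and 2, and 10.74 and 11.05 in the plus glutamine repeats 1 and 2. The single high array was minus N repeat 2, and both plus glutamine arrays lay between the minus N arrays. The difference, plus glutamine minus (minus N), was -0.38 (SE 0.42), with a 95% interval of -1.45 to 0.69. Here and below, SE and 95% interval use limma's moderated variance, which borrows from all probe sets.

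EXPB6 (LOC4349347) came next, with 10.36 and 11.21 without nitrogen and 10.73 and 11.14 with glutamine. EXPB3 (LOC4349349), described in rice from growing internodes, had 9.83 and 10.89 without nitrogen and 10.10 and 10.52 with glutamine. For both genes the glutamine values again fell inside the range of the minus N repeats, and the differences were 0.15 (SE 0.35) and -0.05 (SE 0.40). EXPB6, EXPB2, EXPB3 and EXPB4 follow one another with no gene between them in the RefSeq gene table of assembly ASM3414082v1. All 4 ranked their arrays alike, with minus N repeat 1 lowest and minus N repeat 2 highest. Close paralogs can share signal, and the probe set of EXPB4 carries the suffix for probes that match more than one transcript, so these 4 rows may not be separate measurements. The other bright beta-expansins, EXPB7 and EXPB11, had means of 10.31 and 8.98.

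EXPA1 (LOC4335222) and EXPA3 (LOC4338278) were the brightest alpha-expansins. EXPA1 read 9.50 and 10.29 without nitrogen and 9.86 and 9.85 with glutamine. EXPA3 read 9.05 and 10.43 without nitrogen and 9.74 and 10.03 with glutamine. The minus N repeats of EXPA3 were 2.60-fold apart and its plus glutamine repeats 1.22-fold apart. EXPA8 (LOC4327217), whose overexpression enlarges the rice root system, behaved in the same way. It stood at 8.21 and 9.59 without nitrogen and at 8.49 and 8.80 with glutamine, a difference of -0.26 (SE 0.48, 95% interval -1.46 to 0.95). EXPA10, an aluminium-inducible alpha-expansin of rice root tips, was dimmer and spanned 7.88 to 8.20 over the 4 arrays.

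XTH8 (LOC4345019), a gibberellin-responsive gene of growing rice tissue, had the widest gap between minus N repeats among the 17 genes brighter than the median gene. It read 9.34 and 11.02 without nitrogen, a 3.20-fold gap, and 10.08 and 10.35 with glutamine. Both plus glutamine arrays lay between, so the mean difference of 0.04 (SE 0.56) has a 95% interval from -1.37 to 1.45. These arrays therefore leave room for a change of XTH8 of more than 2-fold in either direction.

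Setting the groups against each other asks whether wall-loosening genes respond within 30 min when starved roots receive glutamine. EXPA5 (LOC4330706), an alpha-expansin, differed most of the 30 genes. Its log2 intensity was 8.18 and 7.49 without nitrogen and 8.79 and 8.84 with glutamine. The groups did not overlap, and the plus glutamine repeats were 0.05 apart. The group means were 7.84 ± 0.49 (SD, n = 2) and 8.81 ± 0.04 (SD, n = 2), a 1.97-fold higher signal with glutamine (log2 difference 0.98, SE 0.29, 95% interval 0.24 to 1.72). The unadjusted p of limma's moderated test was 0.019 and the adjusted p over all probe sets was 1. The log2 difference was 0.61 within number 1 and 1.35 within number 2. It was 0.63 without minus N repeat 2 and 1.32 without minus N repeat 1.

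EXPA2 (LOC4327568), an alpha-expansin, had minus N values of 8.42 and 8.51 and plus glutamine values of 8.90 and 8.84. Its groups did not overlap and its repeats were close, so the difference was 0.48 within number 1 and 0.33 within number 2. The mean difference of 0.40 (SE 0.21) corresponds to a 1.32-fold higher signal and had an unadjusted p of 0.10 in limma. EXLA1 (LOC4331516), the brightest expansin-like gene, stood at 9.53 and 9.52 without nitrogen and at 9.73 and 9.98 with glutamine. The groups were apart here too, with a log2 difference of 0.33 (SE 0.22), and the difference was 0.20 within number 1 and 0.46 within number 2. EXPB17 (LOC4336479) read 7.19 and 7.22 without nitrogen and 7.50 and 7.51 with glutamine, with close repeats in both groups. Its log2 difference was 0.30 (SE 0.20), yet its other, dimmer probe set gave -0.23 (SE 0.23).

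EXPB8 (LOC4331298) was the single gene of the 30 with both plus glutamine arrays below both minus N arrays. It read 7.34 and 7.93 without nitrogen and 7.21 and 7.05 with glutamine. Glutamine roots thus gave a 1.42-fold lower signal (log2 difference -0.51, SE 0.28, unadjusted p = 0.12 in limma). The difference was small within number 1, at -0.13, and larger within number 2, at -0.89. EXPB7, which lies next to EXPB8 with 1 gene between them in the gene table, was brighter and overlapped between the groups, with a difference of -0.28 (SE 0.29).

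Of the 30 genes, 4 were higher with glutamine on each array than on either minus N array, and 1 was lower in the same sense. Over all 17905 genes these shares were 10.1% and 9.03%, so the counts among the 30 genes are of the size of the background. None passed the test, and neither did any of the 57258 probe sets (limma with Benjamini-Hochberg adjustment, 0.00% in each direction). At an unadjusted p under 0.05 there was 1 of the 30 genes, EXPA5, where 1.59% of all genes had such a p. An exact permutation test with 2 arrays against 2 cannot go below 0.333. The median log2 difference was 0.14 for alpha-expansins, 0.08 for beta-expansins, 0.05 for expansin-like genes and -0.01 for all genes. The plot of differences with their intervals shows that the interval of EXPA5 alone lies to one side of 0.

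**Figure D2:**
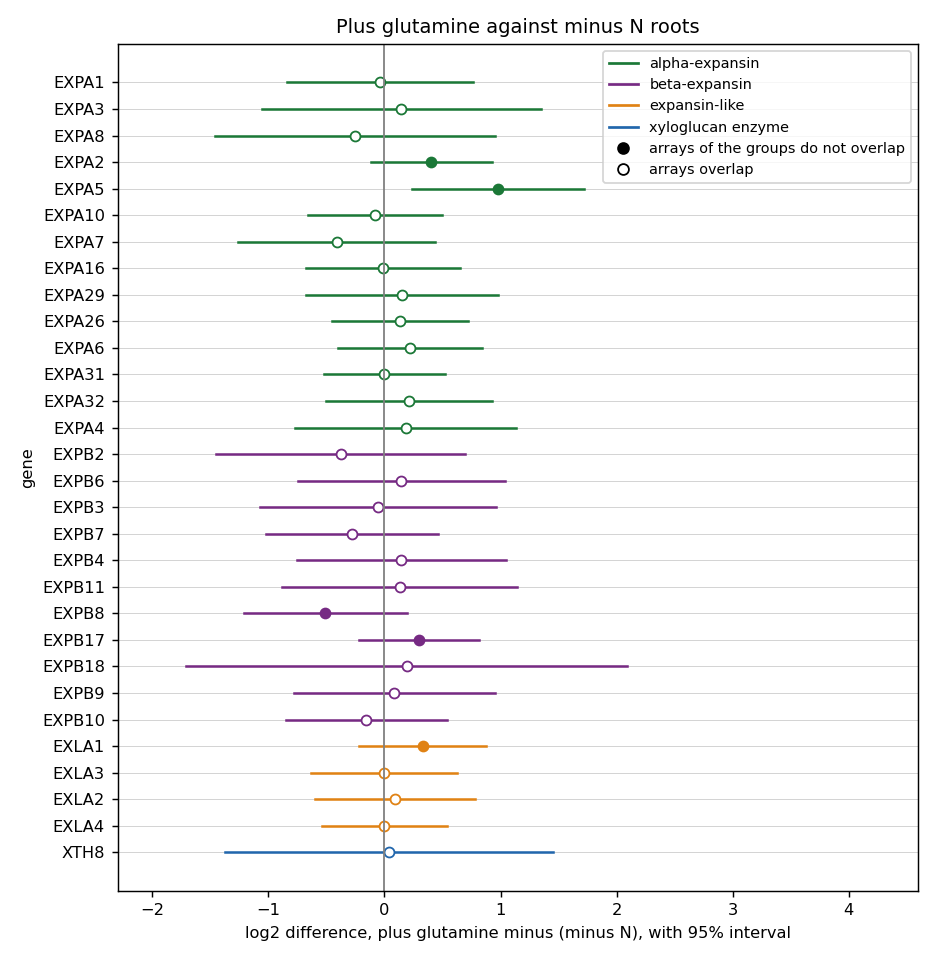
Log2 difference between plus glutamine and minus N (x axis, with limma's unadjusted 95% interval as a line) for each of the 30 genes (y axis), coloured by subfamily; filled points are genes whose 2 arrays per group do not overlap. EXPA5 at 0.98 has the largest difference, EXPB8 at -0.51 the lowest, and the interval of EXPA5 is the single one that leaves out 0.

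The counts without overlap moved with single arrays. Leaving out an array can keep or raise such counts but never lower them, among these genes and among all genes. Without minus N repeat 2, 20 of the 30 genes had their plus glutamine arrays above the remaining minus N array and 2 below, against 42.7% and 19.4% of all genes. Without minus N repeat 1, 6 were above and 15 below, against 20.5% and 44.8%. Without plus glutamine repeat 1 the counts were 9 and 4, against 33.4% and 21.2%, and without plus glutamine repeat 2 they were 6 and 2, against 19.6% and 32.5%. The larger count changed direction with the minus N array that was left out, among these genes and among all genes. A gene with both plus glutamine arrays between the minus N arrays moves from one count to the other by construction.

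For many of the bright genes the minus N repeats lay apart and the plus glutamine repeats lay between them. For 14 of the 30 genes both plus glutamine arrays were inside the range of the minus N arrays, against 24.4% of all genes. This held for 8 of 11 beta-expansins, 4 of 14 alpha-expansins, 1 of 4 expansin-like genes and XTH8. Among genes brighter than the median gene it was 11 of 17, against 24.5%. These included 6 of 8 such beta-expansins and 4 of 7 such alpha-expansins. The genes are not independent of each other and the count was made after the values had been seen, so no test is given.

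Minus N repeat 1 was the lowest array for 21 of the 30 genes, against 38.7% of all genes. Minus N repeat 2 was the highest for 17 of them, against 42.8%. A tie with a plus glutamine array was counted for the minus N array, among these genes and among all genes. EXPA26, EXPA31 and EXLA4 had such a tie for the lowest array, and EXPA31 and EXLA4 for the highest. A gap of at least 2-fold between the minus N repeats, with repeat 2 the higher, was found for 6 genes (EXPA3, EXPA8, EXPB2, EXPB3, EXPB18 and XTH8), against 6.26% of all genes. EXPB18, a dim beta-expansin, had the widest gap, with 3.80 and 5.85 without nitrogen and 4.43 and 5.61 with glutamine. It was also the single one of the 30 with such a gap between the plus glutamine repeats, against 2.36% of all genes. The deviation map shows the pattern as a blue first column and a red second column for most beta-expansins.

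**Figure D3:**
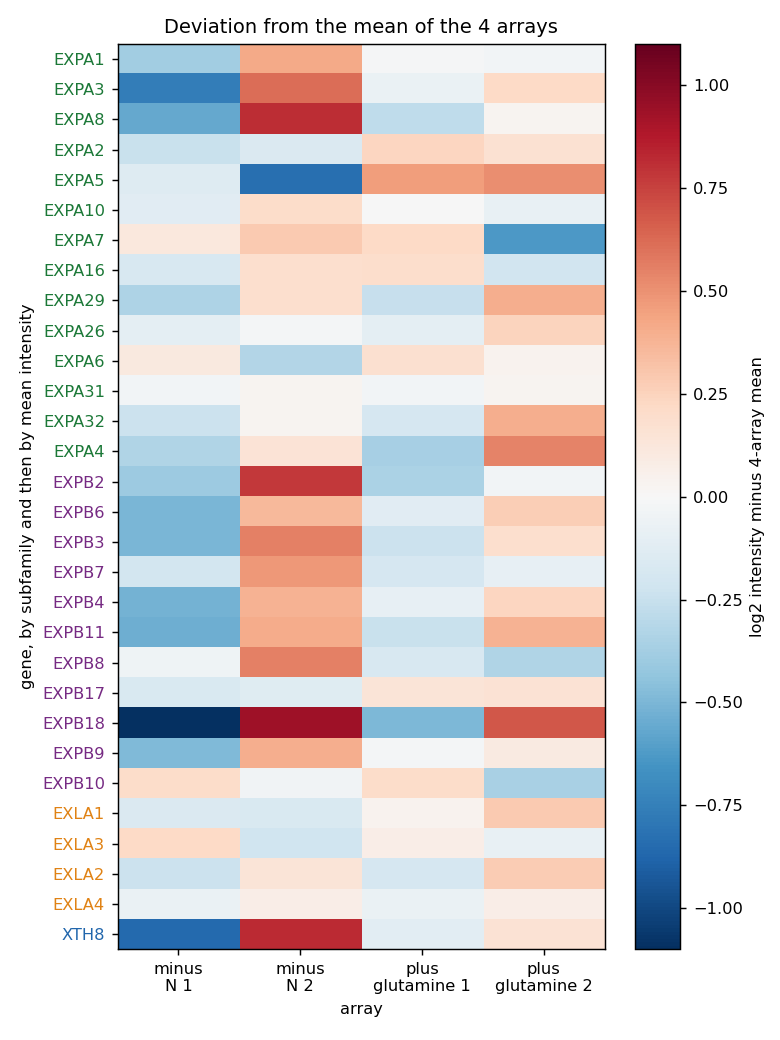
Deviation of each array's log2 intensity from the gene's mean over the 4 arrays (colour, blue below and red above) for the 30 genes (rows) on the 4 arrays (columns). EXPB2, EXPB3, EXPB6, EXPB4, EXPA3, EXPA8 and XTH8 are low on minus N array 1 and high on minus N array 2, while EXPA5 is low on minus N array 2 and above its mean on both plus glutamine arrays.

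For beta-expansins, XTH8 and the brighter alpha-expansins the difference with glutamine mostly had opposite signs within the replicate numbers. Where both plus glutamine arrays lie between the minus N arrays, these signs must be opposite. The counts and medians here thus largely restate the pattern of the arrays given above and are no separate result. Within number 1, 23 of the 30 genes were higher with glutamine and 3 lower, with the rest equal, against 53.9% of all genes higher. Within number 2, 11 were higher and 17 lower, against 55.1% of all genes lower. For beta-expansins, 9 of 11 were higher within number 1 and 10 of 11 lower within number 2, with medians of 0.29 and -0.30. The medians of all alpha-expansins were 0.11 within each number, and those of expansin-like genes 0.03 and 0.14. Among alpha-expansins brighter than the median gene, 5 of 7 were higher within number 1 and lower within number 2, with medians of 0.37 and -0.40. Among beta-expansins brighter than the median gene it was 6 of 8, with medians of 0.28 and -0.26, against 2345 of all 8952 such genes. XTH8 differed by 0.74 and -0.67. Being higher within number 1 and lower within number 2 applied to 15 of the 30 genes, against 28.0% of all genes.

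**Figure D4:**
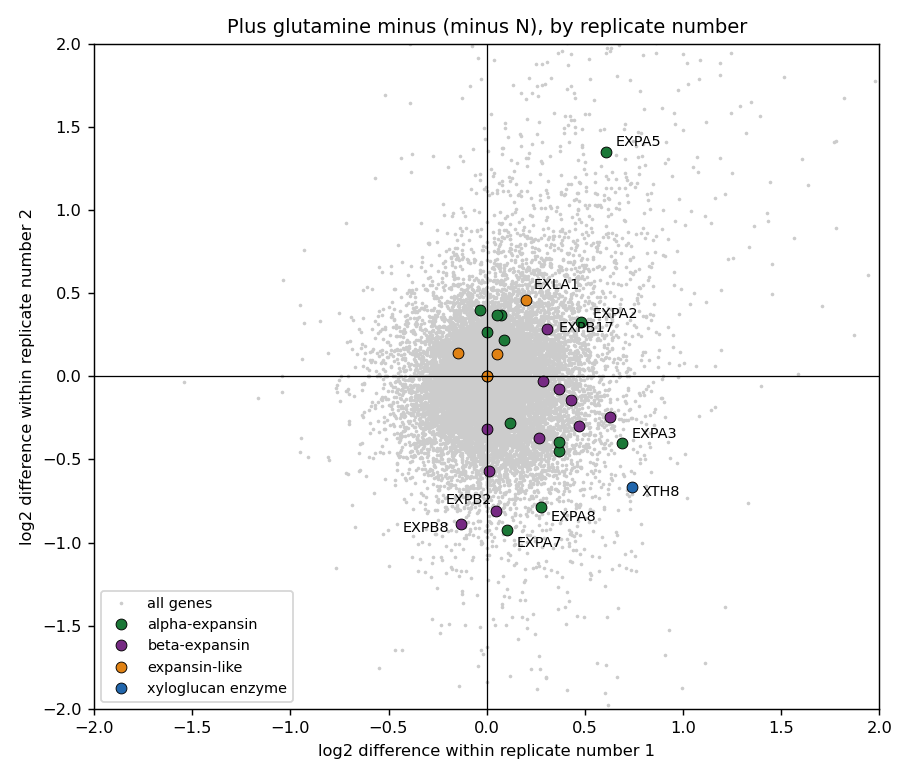
Log2 difference between plus glutamine and minus N within replicate number 1 (x axis) and number 2 (y axis) for the 30 genes (coloured by subfamily) and all genes (grey); the axes end at 2 in each direction, which leaves out 69 of the grey genes. Most beta-expansins, XTH8 and 5 of the 7 alpha-expansins brighter than the median gene lie in the lower right part. EXPA5, EXPA2, EXLA1 and EXPB17 lie in the upper right part.

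Some control and marker signals followed the same arrays and others did not. The 3′ probe set of the actin control, a cytoskeletal gene, read 11.59 and 12.36 without nitrogen and 11.72 and 11.81 with glutamine, again lowest on minus N repeat 1 and highest on minus N repeat 2. That of the Gapdh control read 12.06 and 12.49 without nitrogen and 12.13 and 12.47 with glutamine. The cyclophilin control was highest elsewhere, at 8.84 and 8.91 without nitrogen and 8.85 and 9.26 with glutamine. Of the 3 green markers, rbcS read 8.23 and 10.01 without nitrogen and 9.31 and 9.77 with glutamine, while CAB2R read 13.07 and 13.36, then 13.29 and 13.29. The median of the 10 root markers was 6.50 and 7.60, then 7.61 and 7.69, and that of the 8 seed markers 3.54 and 3.66, then 3.50 and 3.33. Of the 10 root markers, 6 had minus N repeat 2 at least 2-fold above repeat 1, against 6.26% of all genes. The part of tissue composition or RNA quality in the expansin values was not tested.

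The dimmer genes added little to the comparison. Of the 13 genes at or below the median gene, none had groups without overlap and their differences lay between -0.16 and 0.22. EXLA3 (LOC4343213) read 7.18 and 6.73 without nitrogen and 7.03 and 6.88 with glutamine, a difference of 0.00 after rounding (SE 0.25). EXLA2 (LOC4349265) read 5.11 and 5.49 without nitrogen and 5.16 and 5.62 with glutamine on a probe set open to cross-hybridisation, with a difference of 0.09 (SE 0.27), and its other probe set gave -0.20 (SE 0.26). EXPA16, EXPA29, EXPA26, EXPA6, EXPB9 and EXLA4 had means between 3.54 and 6.07.

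EXPA31, EXPA32, EXPA4 and EXPB10 were the dimmest, with means from 2.50 to 2.78. EXPA4 is a rice alpha-expansin of submerged coleoptiles and internodes. The seed storage gene GLUA1 lay in the same range, at 2.29 to 2.56, and without detection calls these signals cannot be set against background. EXPA7 (LOC4334606) was near the median gene, at 7.46 and 7.63 without nitrogen and 7.57 and 6.71 with glutamine. Plus glutamine repeat 2 was its low array, and the difference of -0.41 (SE 0.34) was 0.02 without that array. Its 2 other probe sets, both dim, gave -0.07 (SE 0.22) and 0.28 (SE 0.32).

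**Figure D5:**
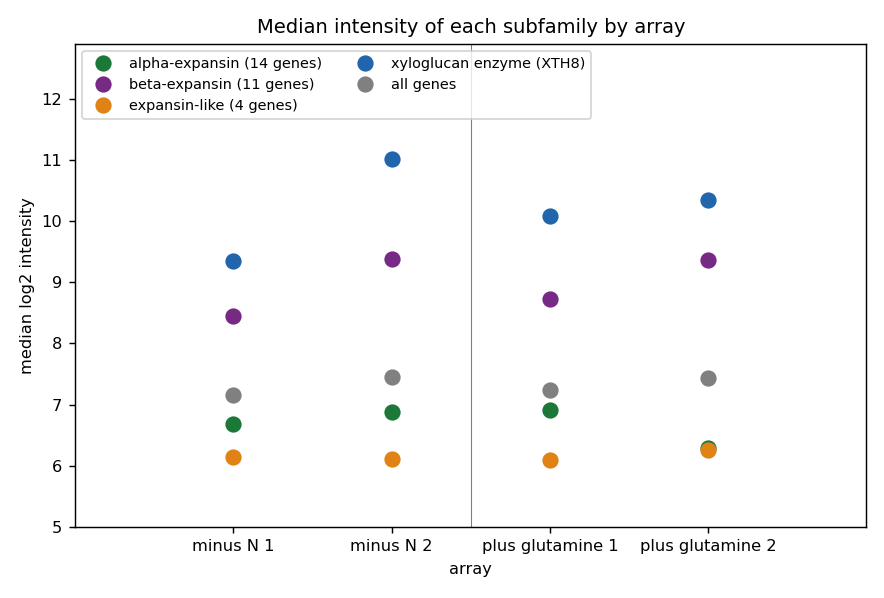
Median log2 intensity (y axis) of each subfamily and of all genes on each of the 4 arrays (x axis), with XTH8 as a single gene. Beta-expansins range from 8.44 to 9.38 and XTH8 from 9.34 to 11.02, both lowest on minus N array 1 and highest on minus N array 2, while expansin-like genes stay between 6.10 and 6.25.

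Other genes that build or remodel the wall were read from 3 lists. Of 29 genes of cellulose and hemicellulose synthesis, 0 passed limma's test in either direction and the median log2 difference was 0.05. Without overlap, 3 were higher with glutamine and 0 lower, where the shares of all genes were 10.1% and 9.03%. CSLF6, which makes the mixed-linkage glucan typical of grass walls, read 7.73 and 7.59 without nitrogen and 8.38 and 8.25 with glutamine. This gap of 0.66 (SE 0.21) was the same size within both numbers, at 0.65 and 0.66, with an unadjusted p of 0.025 and an adjusted p of 1 in limma. CSLD1, a root hair gene of rice, differed by 0.45 (SE 0.25), and CSLF2 by 0.16 (SE 0.21). These 3 were the genes without overlap. In the list 20 differences were positive and 9 negative, the lowest being CSLA7 at -0.56 (SE 0.33) and CSLF7 at -0.52 (SE 0.41), both with overlapping groups.

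Every measured cellulose synthase gene of the CESA family had its lowest value on minus N repeat 1 and its highest on minus N repeat 2. CESA1, a catalytic subunit of primary wall cellulose synthase, read 9.87 and 11.01 without nitrogen and 10.15 and 10.88 with glutamine. CESA4, a subunit of the secondary wall, read 6.71 and 8.63 without nitrogen and 7.60 and 8.50 with glutamine. In the whole list 13 of 29 genes had both plus glutamine arrays between the minus N arrays, against 24.4% of all genes. Minus N repeat 2 was at least 2-fold above repeat 1 for 10 of the 29, against 6.26% of all genes. The list's median difference was 0.21 within number 1 and -0.13 within number 2.

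Among 11 glucanase genes, 0 passed the test, 2 lay higher with no overlap of the groups and 0 lay lower, beside the same 10.1% and 9.03% of all genes. GLU5 differed by 0.68 (SE 0.30) and GLU14 by 0.44 (SE 0.20), both endo-glucanase genes by name. Of 14 genes for wall proteins, pectin enzymes and nucleotide sugars, 0 were without overlap in either direction and 0 passed, with a median difference of 0.10.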

How the data were processed

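Root RNA from 4 samples, 2 per group, was hybridised to the GeneChip Rice Genome Array after biotin labelling of cRNA, per the labels' protocols. The authors deposited intensity values on a linear scale, 1 for each probe set of each array, from 2.9 to 21202.3. The submitters' processing notes name GCOS and RMA but neither version nor role (scaling not given in the sources used here). There were no detection calls.

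Intensities were log2-transformed and not normalized again. Without the 123 control probe sets there were 57258. Of these, 22436 had 1 gene in the platform's annotation, 95 several and 34727 none, and all 22436 matched the RefSeq gene table of assembly ASM3414082v1 by gene number. No sequences were used. The group effect was fitted in limma 3.58.1 (R 4.3.3; lmFit and eBayes, two-sided, Benjamini-Hochberg over 57258 probe sets, threshold 0.05). Shares of all genes use 1 probe set per gene. The script was tested on simulated data.

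Genes described array by array were the 3 brightest of each class, those without overlap and at least 0.3 apart, those at least 0.5 apart, and those whose probe sets differ in sign. Others named were chosen after their values were seen. The members and lists were chosen with earlier results of these data known. From the lists, 5 genes matched through a synonym shared with another kind of protein were left out. Arrays were 2 per group, which limits the precision. The SE, 95% intervals and p-values use limma's moderated variance. It combines the spread between a gene's biological repeats (2 residual degrees of freedom) with a prior from all probe sets (3.33 degrees of freedom). For EXPB17, whose repeats had SDs of 0.023 without nitrogen and 0.0084 with glutamine, the SE was 0.20. Figures were drawn with matplotlib 3.10.9.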

Additional observations from a re-analysis of the deposited data

How the results depend on the processing

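Of the 15 genes described in detail, all kept the sign of their log2 difference under median centring and quantile normalization. Median centring moves every difference by the same amount. It took the smallest positive one, that of XTH8, from 0.036 to 0.027, so it could turn no sign among these genes. With another choice of probe sets EXLA2 turned, to -0.056 as a mean over its probe sets and -0.20 without probe sets open to cross-hybridisation. The median of expansin-like genes went from 0.046 to -0.0015 in both cases. As means over their probe sets, EXPB17 went from 0.30 to 0.035 and EXPA7 from -0.41 to -0.066. With such means 3 genes rather than 4 were higher without overlap. The replicate number as a block, a trended and robust prior and omission of the dimmer 50% of probe sets cannot change a difference of means, and raising low signals to the 20th percentile altered none of these 15, so their signs there say nothing on stability. In every setting that kept all arrays, 0 of the genes tested were called. Of the 30 genes, 23 remained without the dimmer 50% of probe sets and 29 without probe sets open to cross-hybridisation. The replicate block called 0 probe sets, and the replicate block with a trended and robust prior called 24, none of them in these genes. Deviations of same-numbered arrays correlated at r = 0.67 across probe sets, but the labels do not pair them.

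With 1 array left out, the lone array is assumed to vary like the other group. Counts without overlap can then rise but not fall. The count of genes higher without overlap then ran from 6 to 20 and of those lower from 2 to 15. Median log2 differences ran from -0.09 to 0.35 for alpha-expansins, -0.36 to 0.48 for beta-expansins, 0.0014 to 0.20 for expansin-like genes and -0.80 to 0.88 for XTH8. EXPA2, EXPA5, EXLA1, EXPB17 and EXPB8 kept their sign (0.36 to 0.45, 0.63 to 1.32, 0.20 to 0.45, 0.28 to 0.31 and -0.81 to -0.21). The groups of these genes do not overlap, so leaving out 1 array cannot turn their sign, and the kept sign says nothing on stability. The other 10 turned: EXPA1 (-0.44 to 0.36), EXPA3 (-0.54 to 0.83), EXPA7 (-0.84 to 0.018), EXPA8 (-0.94 to 0.43), EXPB2 (-0.97 to 0.21), EXPB3 (-0.58 to 0.48), EXPB6 (-0.28 to 0.57), EXLA2 (-0.14 to 0.32), EXLA3 (-0.22 to 0.22) and XTH8. All of these except EXPA7 and EXLA2 had both plus glutamine arrays between the minus N arrays. Leaving out one or the other minus N array must then give opposite signs, so their turn is no further result.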
